A study of Drosophila melanogaster with 6 samples.

Results

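The peptidoglycan recognition proteins (PGRPs) were followed in Drosophila S2 cells, a line of embryonic origin with features of blood cells, after exposure to protocatechuic aldehyde (PA). The family was taken as 8 named genes, PGRP-SA, PGRP-SB1, PGRP-SD, PGRP-LA, PGRP-LB, PGRP-LC, PGRP-LE and PGRP-LF, and a probe set was a member when the array annotation gave it exactly 1 gene and that gene was among the 8. This rule found 5 probe sets among the 18769 tested, 1 each for PGRP-SB1, PGRP-LA, PGRP-LB, PGRP-LE and PGRP-LF. PGRP-SA, PGRP-SD and PGRP-LC were matched to no probe set in the annotation used here, so no value is given for them. One group was S2 cells given 0.1 mM PA for 2 h (3 samples), and its control was S2 cells given vehicle (3 samples). All 6 samples were grown in Schneider's medium with insulin and fetal bovine serum, and their total RNA was hybridised to 1 Affymetrix array per sample. S2 cells are a single line in culture. The labels do not say whether the 3 samples of a group were separate cultures, and the spread behind every p-value may therefore be technical.

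PGRPs bind peptidoglycan, the cell wall polymer of bacteria, through a domain related to a bacteriophage amidase. Some are sensors: PGRP-SA and PGRP-SD act in the blood ahead of the Toll receptor, while PGRP-LC at the cell membrane and PGRP-LE, which also works inside the cell, start the Imd pathway, whose transcription factor is Relish. Others act on the signal: PGRP-LB and PGRP-SB1 are secreted amidases that cut peptidoglycan, PGRP-LF is a membrane protein that holds PGRP-LC back, and PGRP-LA is a membrane family member with a regulatory part in Imd signalling of barrier tissues. Blood cells and cell lines derived from them respond to bacterial peptidoglycan through these proteins.

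With PA, transcripts of both measured membrane-bound regulators, PGRP-LF and PGRP-LA, were higher, by 1.19-fold and 1.14-fold. Those of both secreted amidases and of the sensor PGRP-LE did not pass the test. In counts, 2 of the 5 probe sets were called higher and 0 lower (limma, adjusted p under 0.05), while 2.29% of all tested probe sets were called higher and 2.82% lower. These shares depended on brightness. Of 10 equal bins of probe sets by signal, the brightest, which holds PGRP-LF, PGRP-LB and PGRP-SB1, had 16.7% called higher. The next bin, which holds PGRP-LA, had 3.09%. By the methods' t-test with no fold limit, the same 2 had p under 0.05, as had 6.57% of all tested probe sets in the higher direction. No member reached the limits of 1.5-fold or 0.67-fold that the study used for its selected genes. The deposited values are MAS5 signals, linear intensities that summarise the probes of a probe set, and changes are differences of log2 signal, PA minus vehicle.

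**Figure D1:**
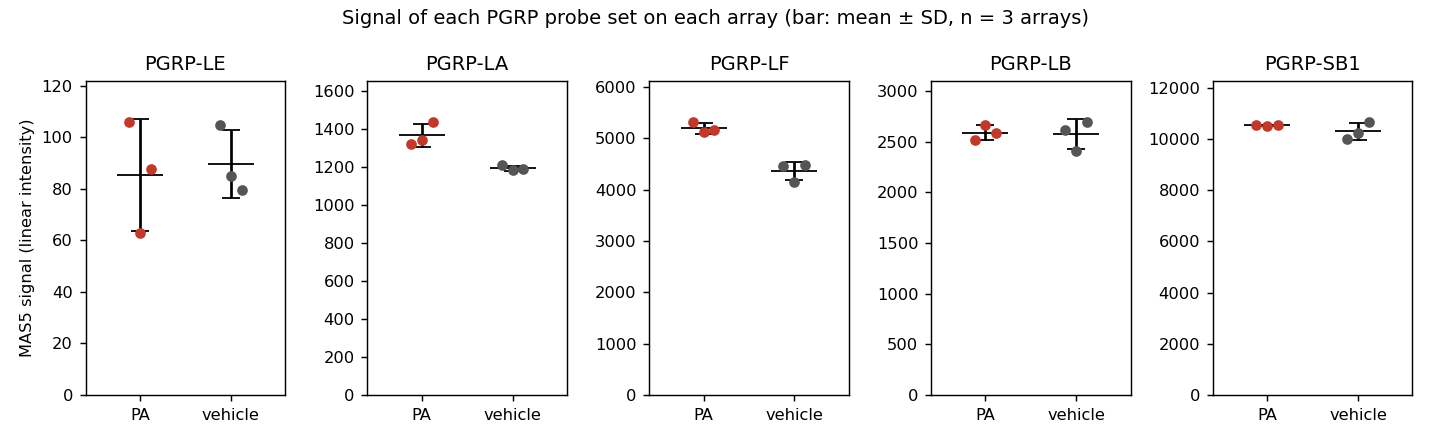
MAS5 signal (linear intensity, each panel with its own axis from 0) of the PGRP probe sets on each array; points are arrays, the horizontal line is the mean and the bars are the SD, with PA at the left and vehicle at the right of each panel. All 3 PA arrays lie above all 3 vehicle arrays for PGRP-LA and PGRP-LF only; the groups overlap for PGRP-LE, PGRP-LB and PGRP-SB1.

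PGRP-LF, the membrane protein that opposes PGRP-LC, showed the clearest change (probe set 1633145_at). Its signal was 5320, 5117 and 5162 on the PA arrays, against 4457, 4153 and 4475 on the vehicle arrays. Every PA array was thus above every vehicle array, and the gap between the groups was wider than the range within either. The mean was 5200 ± 107 with PA and 4362 ± 181 with vehicle (SD, n = 3 each). This was a log2 change of 0.25 (standard error 0.04, limma adjusted p = 0.00214), with a 95% interval of 1.13-fold to 1.26-fold. All 3 arrays of PA lying above all 3 of vehicle gives a 2-sided exact permutation p = 0.1, the smallest that 3 arrays against 3 allow, and 9.61% of all tested probe sets had the same order. Leaving out any 1 array kept the call, with changes of 0.22 to 0.27 and adjusted p of 0.00449 to 0.0144. The call was lost when each array was centred on its median (0.17, adjusted p = 0.392) and with no trend of the variance on signal (adjusted p = 0.41).

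PGRP-LA, the other membrane-bound member with a probe set of its own, was higher by a smaller step (probe set 1625486_a_at, a suffix that marks probes shared by several transcripts of the gene). Its signal was 1320, 1341 and 1437 on the PA arrays, against 1209, 1185 and 1188 on the vehicle arrays. The vehicle arrays were close together, and the third PA array stood above the other 2. The mean was 1366 ± 62.3 with PA and 1194 ± 13.3 with vehicle (SD, n = 3 each). The log2 change was 0.19 (standard error 0.05, limma adjusted p = 0.0279), with a 95% interval of 1.07-fold to 1.23-fold, and the exact permutation p was again 0.1. This call was close to the threshold, and with 1 array left out it remained only without PA replicate 1. The adjusted p was 0.0706 without PA replicate 2, 0.121 without PA replicate 3, and 0.061, 0.0918 and 0.0723 without vehicle replicates 1, 2 and 3. The change itself stayed between 0.16 and 0.22 with 1 array left out. The call was also lost when arrays were centred on their median (0.11, adjusted p = 0.564), with no trend (adjusted p = 0.497) and with an offset of 64 (adjusted p = 0.0507).

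PGRP-SB1, a secreted amidase that cuts peptidoglycan, had a high signal in both groups (probe set 1636490_at). It read 10548, 10499 and 10529 on the PA arrays, against 9980, 10232 and 10662 on the vehicle arrays. The PA arrays agreed closely and fell inside the range of the vehicle arrays. The means were 10525 ± 24.5 with PA and 10291 ± 345 with vehicle (SD, n = 3 each), a log2 change of 0.03 (standard error 0.03, limma adjusted p = 0.722) with a 95% interval of 0.973-fold to 1.08-fold.

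PGRP-LB, the secreted amidase that limits Imd signalling by degrading its ligand, gave almost the same mean in both groups (probe set 1630741_s_at, a suffix for probes that can match transcripts of more than 1 gene). Its signal was 2514, 2664 and 2584 on the PA arrays, against 2617, 2410 and 2693 on the vehicle arrays, and the groups overlapped. The means were 2588 ± 74.97 with PA and 2573 ± 147 with vehicle (SD, n = 3 each). The log2 change was 0.01 (standard error 0.05, limma adjusted p = 0.96), and its 95% interval ran from 0.94-fold to 1.08-fold. For both amidases a change as large as that of PGRP-LF, 1.19-fold, therefore lies outside the interval.

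PGRP-LE, the sensor that can act inside the cell, was the dimmest member (probe set 1638119_at) and the least precisely measured. It read 106, 62.7 and 87.8 on the PA arrays, against 105, 84.9 and 79.7 on the vehicle arrays. The second PA array was the lowest of the 6 and the first of each group the highest. The means were 85.5 ± 21.7 with PA and 89.7 ± 13.2 with vehicle (SD, n = 3 each), a log2 change of -0.09 (standard error 0.22, limma adjusted p = 0.902). Its 95% interval, from 0.679-fold to 1.29-fold, includes no change and also changes of the size seen for PGRP-LF and PGRP-LA, so a rise or fall of that size was not detectable here.

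**Figure D2:**
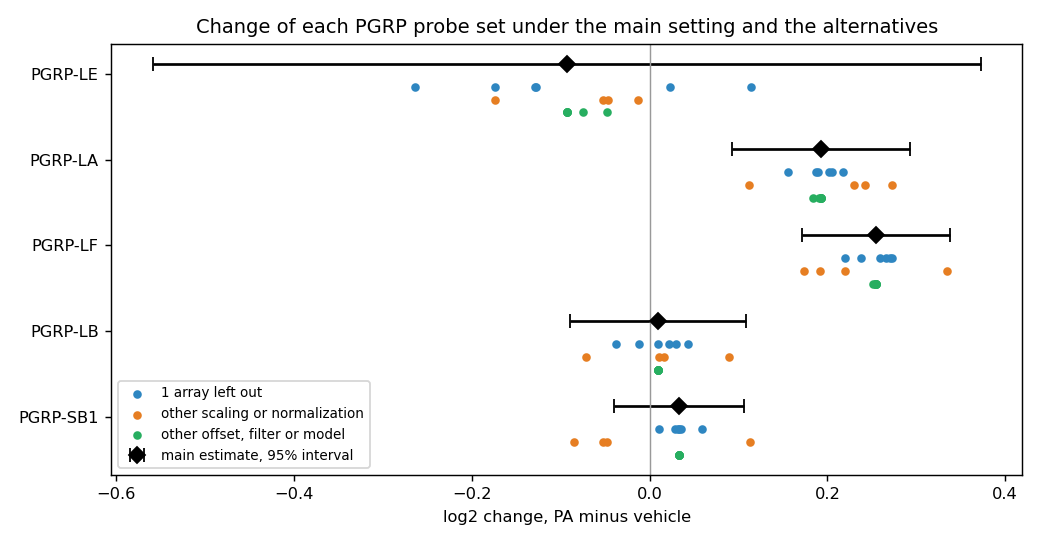
Log2 change, PA minus vehicle, of each PGRP probe set; diamonds with bars are the main estimates with their 95% intervals, and dots are the estimates with 1 array left out, another scaling or normalization, or another offset, filter or model. The estimates of PGRP-LF (0.17 to 0.33) and PGRP-LA (0.11 to 0.27) lie above 0 throughout, while those of the other members fall on both sides of 0. For PGRP-LF and PGRP-LA only another scaling or normalization could have moved an estimate below 0.

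Among the members, the spread of the changes was compared directly, as the difference between the log2 changes of each of 10 pairs. PGRP-LF exceeded PGRP-SB1 by 0.22 and PGRP-LB by 0.25 on the log2 scale, and PGRP-LA exceeded them by 0.16 and 0.18. In each of these 4 pairs the log2 ratio of the members was higher on every PA array than on every vehicle array (2-sided exact permutation p = 0.1, the smallest possible, and 0.25 after Benjamini-Hochberg adjustment over the 10 pairs), so this test cannot reach 0.05 for any of them. PGRP-LF and PGRP-LA differed by 0.06 (exact permutation p = 0.4), with overlapping ratios.

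The brightness of the probe sets moved with the changes on these arrays. The 75th percentile of signal was 492 to 495 on the PA arrays and 515 to 534 on the vehicle arrays, while the 99th percentile was 11764 to 11913 on the PA arrays and 10897 to 11239 on the vehicle arrays. Between percentiles 95 and 98 of mean signal, where PGRP-LF lies (96.4), the median log2 change was 0.06 with an upper quartile of 0.11, and 14% of probe sets were called higher. Between percentiles 85 and 90, where PGRP-LA lies (86.1), the median was -0.04 with an upper quartile of 0.03, and 3.09% were called higher. Both members were thus above the upper quartile for their brightness. That position follows largely from their calls, since few probe sets in either band were called higher, and is no separate support. PGRP-SB1 lies at percentile 98.8, and above percentile 98 the median change was 0.13, the lower quartile 0.08 and 49.2% of the probe sets were called higher. At 0.03, PGRP-SB1 was below that lower quartile. For PGRP-LB (percentile 92.7) the change of 0.01 was close to the median of 0.01 between percentiles 90 and 95. Cyclic loess, a normalization that removes a shift depending on signal, gave PGRP-LF a change of 0.22 (adjusted p = 0.00594), PGRP-LA 0.23 (adjusted p = 0.0169) and PGRP-SB1 -0.05 (adjusted p = 0.441), so that PGRP-LF was no longer ahead of PGRP-LA.

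**Figure D3:**
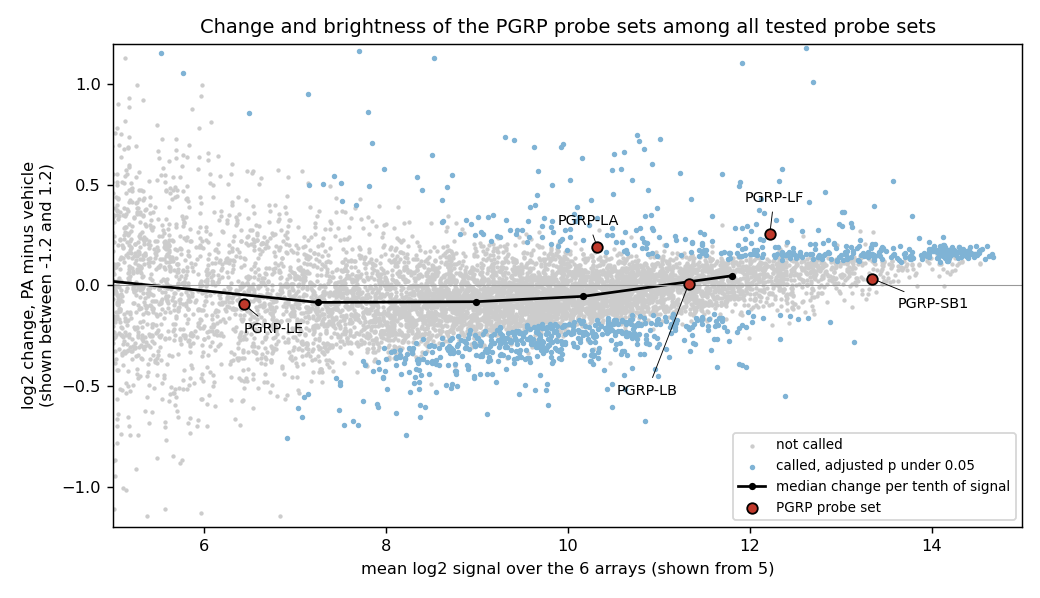
Log2 change, PA minus vehicle, against mean log2 signal over the 6 arrays for all tested probe sets; grey points were not called, blue points had an adjusted p under 0.05, the black line joins the median changes of 10 equal bins of probe sets by signal, and red points are the PGRP probe sets. PGRP-LF (0.25) and PGRP-LA (0.19) stand above the black line, PGRP-LB (0.01) is on it, and at the bright end PGRP-SB1 (0.03) lies below most probe sets of similar signal.

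PGRP-LA, PGRP-LC and PGRP-LF follow one another directly on chromosome arm 3L in the RefSeq annotation of the Release 6 assembly, so the 2 members that were higher flank the receptor gene for which no probe set was matched. The next protein-coding genes outside this cluster were not called. GluRIB, a glutamate receptor subunit gene beside PGRP-LA, had a low signal of 43.2 ± 4.85 with PA and 49.9 ± 10.6 with vehicle (SD, n = 3 each, log2 change -0.19, limma adjusted p = 0.834). UGP, the gene of UDP-glucose pyrophosphorylase beside PGRP-LF, had 157 ± 17.6 with PA and 160 ± 3.93 with vehicle (SD, n = 3 each, log2 change -0.03, adjusted p = 0.946). The standard errors were 0.29 for GluRIB and 0.12 for UGP, so a change of the size seen for PGRP-LA could have been missed. PGRP-SB1 stands next to its relative PGRP-SB2, whose probe set lay at percentile 46.7 of mean signal, at 25.6, 7.06 and 20.6 on the PA arrays and 13.1, 13.4 and 15.8 on the vehicle arrays. On its other side lies Dbp73D, the gene of a DEAD-box RNA helicase, which was called lower, with 635 ± 33.7 with PA and 812 ± 9.46 with vehicle (SD, n = 3 each, log2 change -0.36, adjusted p = 0.00247).

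Genes with a profile most like that of the called members were found by the root mean square difference between log2 signals over the 6 arrays, each gene centred on its own mean. For PGRP-LF they were CG42240 (difference 0.022), PheRS-m, the mitochondrial phenylalanyl-tRNA synthetase (0.023), and CG13117 (0.024), with log2 changes of 0.23, 0.27 and 0.22. For PGRP-LA they included cher, which encodes the actin cross-linker filamin (0.015), and CG3246 (0.019), with log2 changes of 0.20 and 0.17. None of these named genes is a PGRP or belongs to the Imd and Toll lists used here.

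Of the PGRP genes outside the 8, the secreted amidase PGRP-SC2 and PGRP-SB2 had a probe set of 1 gene, and neither was called. PGRP-SC2 read 613, 646 and 655 on the PA arrays, against 658, 506 and 529 on the vehicle arrays. The first vehicle array was the highest of the 6, and the groups overlapped. Its log2 change was 0.19 (standard error 0.08, limma adjusted p = 0.279), close to that of PGRP-LA but with a larger error.

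No measured gene of the Imd or Toll lists, through which PGRPs signal, was called in the main test. Of 20 listed genes of the Imd pathway, 18 were measured, and 0 were called higher or lower; the median log2 change was 0.06, beside -0.01 over all tested probe sets. Rel, the gene of Relish, had a signal of 7078 with PA and 6505 with vehicle, a log2 change of 0.12 (standard error 0.04, limma adjusted p = 0.0772). The change of Rel was 0.04 with centring on the median (adjusted p = 0.916). It was 0.05 after quantile normalization (adjusted p = 0.61) and 0.06 with cyclic loess (adjusted p = 0.448). POSH, a scaffold protein of the JNK and Imd pathways, had a change of 0.20 (adjusted p = 0.096). The adjusted p of POSH was 0.0352 after quantile normalization and 0.662 with centring on the median. With cyclic loess its change was 0.27 and it was called (adjusted p = 0.0414). Tab2, the adaptor of the kinase Tak1, had a change of 0.15 (adjusted p = 0.106), and of 0.21 with cyclic loess (adjusted p = 0.0544). For pirk, which like PGRP-LF holds PGRP-LC signalling back, the change was 0.08 (adjusted p = 0.415). Of 20 listed genes of the Toll pathway, from recognition in the blood to the NF-κB factors, 17 were measured and 0 were called, with a median of 0.04. The smallest p-values there belonged to Hayan, a protease measured at only 17.8 with PA and 5.58 with vehicle (adjusted p = 0.248), to Traf6 (-0.18, adjusted p = 0.26) and to Myd88 (-0.12, adjusted p = 0.299). At an unadjusted p under 0.05, 6 of the 18 Imd genes and 2 of the 17 Toll genes passed in limma, and 7 and 2 did by the methods' t-test, in either direction. Over all tested probe sets these shares were 17% in limma and 14.4% by the methods' t-test. That background is not matched for brightness. The median percentile of mean signal was 85.2 for the Imd list and 74.6 for the Toll list. Limma calls were more frequent among bright probe sets, at 0.107% higher and 0.0533% lower in bin 6 of 10, against 3.09% and 11.3% in bin 9. Whether either list exceeds probe sets of like signal was not tested.

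Antimicrobial peptides, the secreted products of Imd and Toll signalling, were mostly higher. Of 14 listed genes 6 were measured, 5 were called higher and 0 lower, with a median of 0.19. Over all tested probe sets 2.29% were called higher and 2.82% lower. Drs (drosomycin) had a log2 change of 0.27 (limma adjusted p = 0.00178), CecB (a cecropin) 0.27 (adjusted p = 0.00473) and AttD (an attacin) 0.18 (adjusted p = 0.0114). These genes lie at the bright end, at a median percentile of 98.3 of mean signal. Above percentile 98, where AttD, DptB and Mtk lie, 49.2% of probe sets were called higher. Between percentiles 95 and 98, where Drs and CecB lie, 14% were. Whether the list exceeds probe sets of like signal was not tested. After quantile normalization the calls of Drs and CecB remained (adjusted p = 0.00771 and 0.022), and after centring on the median none of the 6 was called. With cyclic loess the changes of Drs and CecB were 0.22 each (adjusted p = 0.00574 and 0.0193). Those of AttD, DptB and Mtk, at 0.18, 0.17 and 0.18 before, were 0.05, 0.05 and 0.10 (adjusted p = 0.442, 0.566 and 0.161).

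**Figure D4:**
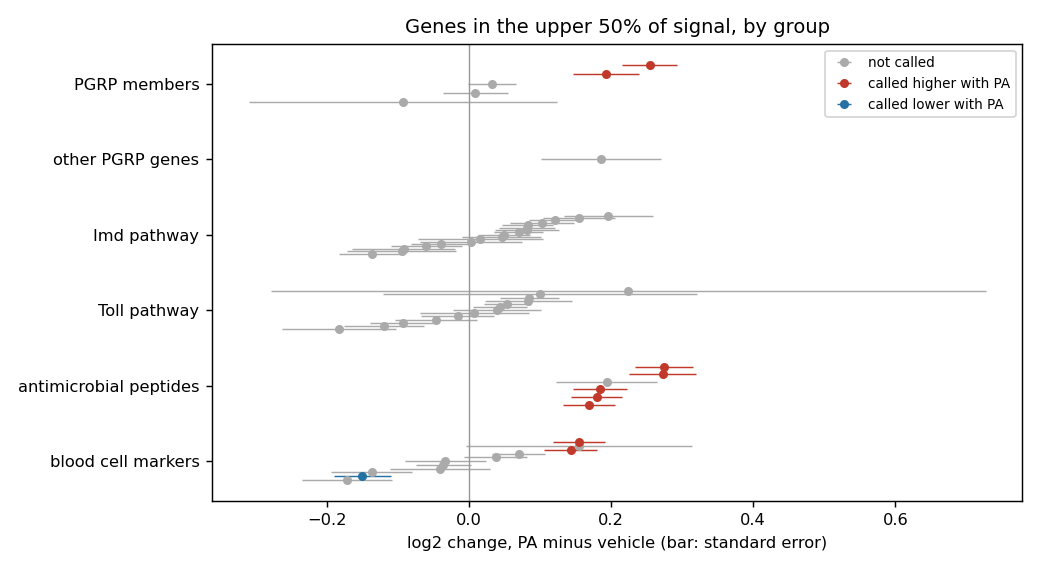
Log2 change, PA minus vehicle, with its standard error for the measured genes in the upper 50% of mean signal, grouped as PGRP members, other PGRP genes, Imd pathway, Toll pathway, antimicrobial peptides and blood cell markers; red points were called higher with PA, blue points lower and grey points not called. PGRP-LF (0.25) and PGRP-LA (0.19) lie among the antimicrobial peptides (5 of 6 called). The Imd gene POSH (0.20) and PGRP-SC2 (0.19), neither of them called, lie in the same range. Of the Imd and Toll genes 0 were called, while 2.29% of all tested probe sets were called higher and 2.82% lower.

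The blood cell character of the line was checked on 12 markers, all measured. The phagocytosis receptor NimC1 and hemolectin (Hml) had signals of 5334 and 12594 with PA and 4794 and 11406 with vehicle, and 10 of the 12 markers lay in the upper 25% of signal. The other 2 were Pxn (peroxidasin), at 161 with PA and 147 with vehicle, and the scavenger receptor Sr-CI, at 16.1 with PA and 17.2 with vehicle. NimC1 (0.15) and Hml (0.14) were called higher and the GATA factor gene srp (-0.15) lower, with limma adjusted p of 0.0254, 0.0427 and 0.0467. Hml lies at percentile 99.1 of mean signal, in the band where 49.2% of probe sets were called higher. With cyclic loess the changes were 0.12 for NimC1 and 0.05 for Hml, neither called (adjusted p = 0.0879 and 0.557), and -0.19 for srp (adjusted p = 0.0184), while centring on the median left none of the 3 called. The summed signal of the list was 39063 to 41239 on the PA arrays and 38574 to 39889 on the vehicle arrays. Other tissues (neurons, muscle, fat body, germline, gut) had 14 markers with a probe set. Limma called 0 of them, and 0 lay in the upper 25% of signal. At an unadjusted p under 0.05, limma passed 1 and the methods' t-test 1, in both the germline marker vas. It read 8.68, 22.2 and 15.1 on the PA arrays, against 2.08, 2.64 and 3.88 on the vehicle arrays. Calls were rare among dim probe sets (0.107% higher and 0.0533% lower in bin 6 of 10), so 0 calls says little about these markers. Of 5 markers of crystal cells and lamellocytes, other blood cell types, 0 were called and 0 had an unadjusted p under 0.05 by either test. Some markers of other types were brighter than Pxn. The neuron marker elav read 173 with PA and 183 with vehicle, and the lamellocyte marker PPO3 408 and 368. In such bulk RNA, a change in transcripts per cell and a change in the share of cells that carry them cannot be told apart.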

How the data were processed

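The deposited table holds MAS5 signals, intensity values on a linear scale, which the authors made from 1 Affymetrix GeneChip Drosophila genome array per sample. The submitters' notes name MAS5, with no version given in the sources used here, and the table has no detection calls. The mean of each array was 500 once 2% at either end had been trimmed, so the main test used the values unscaled. The tests covered 18769 of 18952 probe sets, all but 183 controls. Of those tested, 13647 have 1 gene in the annotation used, 402 several and 4720 none. Symbols were updated by gene identifier for 13544. No sequence or position is given, since the tables used here name no build for the probes and hold no sequences.

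Log2 signals without an offset were tested with limma (version 3.58.1, under R 4.3.3), by lmFit and eBayes with an intensity trend and group as the only term, adjusted over all tested probe sets by Benjamini-Hochberg. Exact permutation tests used scipy 1.17.1. The methods' t-test was Student's test with equal variances on log2 signal. The study names Student's test for its viability data and only a t-test for its selected genes. The log2 scale and equal variances were therefore choices made here. The number of arrays limits the precision.

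A gene's main probe set was the one with the highest mean log2 signal. Named were all members, up to 3 genes of each list with the smallest p, and the 3 genes nearest in profile to each called member, of which 1 is not reported here. GluRIB, UGP, pirk, Pxn and Sr-CI, the genes next to members and the bands of signal were chosen after values were seen. The members and lists were chosen with earlier results of these data known.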

Additional observations from a re-analysis of the deposited data

How the results depend on the processing

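PGRP-LF and PGRP-LA had positive changes under all 16 alternatives, and PGRP-LF was called in 14 of them and PGRP-LA in 8. Most of these signs were fixed in advance. The signal filter, no trend, robust variances and the replicate block keep the main estimate. With every PA array above every vehicle array, an offset or leaving out 1 array cannot turn the sign. Only another scaling or normalization could have done so. Centring each array on its median, which lowers every change by 0.08, gave 0.17 for PGRP-LF and 0.11 for PGRP-LA and ended both calls, as did a fit with no trend (0.25 and 0.19). An offset of 64 ended the call of PGRP-LA (0.18, adjusted p = 0.0507). The number of PGRP probe sets called higher was therefore 0 with median centring and with no trend, 1 with the offset of 64, and 1 to 2 with 1 array left out, where the change was 0.16 to 0.22 for PGRP-LA and 0.22 to 0.27 for PGRP-LF. By the methods' t-test 2 had p under 0.05 (a count added after seeing the data), but 0 passed the fold limits and 0 passed after adjustment. Changes that were not called turned sign as follows. PGRP-SB1 was -0.048 with median centring, -0.085 after quantile normalization and -0.053 with cyclic loess. PGRP-LB was -0.072 with median centring, and -0.037 to 0.043 with 1 array left out, below 0 without PA replicate 2 or vehicle replicate 2. PGRP-LE was -0.26 to 0.11 with 1 array left out, above 0 without PA replicate 2 or vehicle replicate 1.

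Over all tested probe sets 429 were called higher and 529 lower. The counts were 58 and 350 with median centring, 988 and 211 when the 75th percentiles of the arrays were set equal (added after seeing the data), 238 and 266 after quantile normalization, 248 and 269 with cyclic loess, 270 and 383 with an offset of 16, 225 and 314 with an offset of 64, 7 and 0 with no trend, and 196 to 402 and 262 to 412 with 1 array left out. The methods' t-test gave 354 and 231 with its fold limits, 29 and 9 after adjustment, and 1234 and 1460 at p under 0.05 alone. In the lists, median centring left 0 antimicrobial peptides and 0 blood cell markers called, and quantile normalization left 2 and 1 and called 1 Imd gene, POSH. POSH was also called with cyclic loess (limma adjusted p = 0.0414). Dim probe sets limit what can be seen: the median replicate SD was 0.16 on the log2 scale in the seventh of 10 bins of signal, which holds PGRP-LE, and 0.04 in the brightest bin.

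The labels number the arrays 1 to 3 in both groups. Deviations from the group means correlated at -0.0012, 0.019 and -0.0016 between same-numbered arrays, against -0.017 to 0.018 for different numbers. These correlations cover all tested probe sets, where the dim ones vary most. They therefore cannot show whether same-numbered arrays shared a culture or day. With the replicate block, 386 probe sets were called higher and 557 lower, and PGRP-LF (adjusted p = 0.00235) and PGRP-LA (adjusted p = 0.0396) remained called.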
